A study of Homo sapiens with 12 samples.

Results

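The p53 pathway was examined in Colo320DM colorectal cancer cells through 9 genes, namely the kinase gene HIPK2, the p53 inhibitor gene MDM2 and the p53 target genes PMAIP1, BBC3, BAX, CDKN1A, SESN1, GDF15 and GADD45A. The members were all genes of this name in the array's own annotation, which gave 17 probes of the 50599 distinct probes on the array, or 9 of 20446 gene names. RNA of 6 clones had been hybridised to 12 one-colour arrays, in 4 groups of 3. The 3 control clones carried the pcDNA6.2-GW/EmGFP-miR-neg plasmid and the 3 TET1 knockdown clones carried a microRNA vector against TET1, whose product oxidises methylated cytosine. Every clone was measured after mock treatment and after 1 µM 5-aza-dC (5-aza-2′-deoxycytidine, which traps DNA methyltransferases) for 72 h. Control clones included, all 6 had been transfected, selected with G418 and grown from a GFP-positive colony, so that each was a single isolate of one line and a difference between clone types includes differences between isolates.

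p53 is a transcription factor that is held at a low level by the ubiquitin ligase MDM2 and is stabilised by DNA damage and other stresses. Kinases such as HIPK2 then phosphorylate it, and it turns on genes for cell death (PMAIP1, BBC3, BAX), for arrest and repair (CDKN1A, GADD45A) and for the response to stress (SESN1, GDF15). Several of these genes are also under the control of other transcription factors. 5-aza-dC traps the enzymes that methylate CG dinucleotides, and gene promoters hold these dinucleotides in very different numbers.

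Promoter sequences from RefSeq (GRCh38.p14) were found for 7 of the 9 members. Those of PMAIP1, which stood apart between the clone types, and of GDF15, which rose with 5-aza-dC, are shown because they differ in CG number. Whether that number bears on either result was not tested. Each is the 250 bases before the transcription start, 5′ to 3′ on the gene's strand, with each CG dinucleotide in capitals. PMAIP1 lies at chr18:59899746-59899995 and GDF15 at chr19:18385908-18386157, both on the plus strand.
PMAIP1: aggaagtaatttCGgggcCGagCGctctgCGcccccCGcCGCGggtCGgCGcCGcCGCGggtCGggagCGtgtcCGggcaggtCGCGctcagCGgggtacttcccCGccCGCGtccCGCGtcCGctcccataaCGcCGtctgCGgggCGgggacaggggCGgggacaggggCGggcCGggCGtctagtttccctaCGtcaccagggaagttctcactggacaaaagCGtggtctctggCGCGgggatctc
GDF15: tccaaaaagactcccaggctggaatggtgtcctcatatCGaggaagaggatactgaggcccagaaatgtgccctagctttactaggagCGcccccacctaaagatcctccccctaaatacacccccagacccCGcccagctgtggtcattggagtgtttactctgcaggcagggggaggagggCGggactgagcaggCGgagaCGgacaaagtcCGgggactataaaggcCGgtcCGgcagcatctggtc
The PMAIP1 window held 36 CG dinucleotides, a number reached by 4.85% of 35116 promoter windows of this length, against a median of 11, and 33 was reached by 8.15%. The GDF15 window held 9, a number reached by 54.1% of windows. Among the other members, MDM2 held 33 or 17 and SESN1 17, 23 or 32, depending on the transcription start, CDKN1A 27, BAX 25 and BBC3 4. Methylation of these windows was not analysed here.

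Values are the log2 of the processed intensity minus the log2 of the array's 75th percentile, so that 0 is the level of a fairly bright probe and probes of different genes are not compared in level. Where a gene had several probes, the brightest over the 12 arrays spoke for it. The 75th percentile was at an intensity of 361 to 542, 45.7 to 52.9% of probes were well above background, and the lowest signal among those lay between -4.96 and -4.16. The arrays lay on 2 slides. Slide 1 held mock control clones 1 and 2, knockdown clones 1 and 3 under both treatments and mock knockdown clone 2. On slide 2 were mock control clone 3, treated knockdown clone 2 and every treated control clone. The targeted gene, TET1, was measured by 3 probes, whose mean in knockdown clones was 39.1 to 52.5% of control after mock treatment and 30.2 to 64.1% after 5-aza-dC. At its brightest probe the mock knockdown clones, at 2.92 to 3.01, lay below the control clones, at 3.65 to 4.05 (p = 0.1 in an exact two-sided permutation test, which cannot go lower with 3 against 3). After treatment knockdown clone 2 read 3.72, within the control range of 3.48 to 3.79, although it was below the control clones at the other two probes. No TET1 probe passed the test used for the members between clone types (limma adjusted p 0.245 to 0.412 after mock treatment and 0.126 to 0.348 after 5-aza-dC). Among 11 colorectal epithelial markers 6 to 9 were well above background on an array, with CDX2 at 7.08 to 8.65 and KRT18 at 3.50 to 4.25, whereas CDH1 and LGALS4 were not well above background on any.

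The clearest difference among the 9 genes was in PMAIP1, which encodes NOXA, a BH3-only protein that promotes cell death. It was measured by a single probe (hg19, chr18:57570691-57570750). In mock control clones 1, 2 and 3 it read -1.78, -1.12 and -1.11. In mock knockdown clones it read -6.46, -6.39 and -6.89, which was not well above the background of any of these arrays. The 3 control clones and the 3 knockdown clones were thus far apart. On the scale used here the probe was at least 9.18-fold lower in knockdown clones (the control mean against the lowest signal well above background of each knockdown array). The test was made on the measured difference of -5.25 and not on this bound (limma adjusted p = 0.00125). The probe passed the filter on dim probes, which asks for 3 arrays well above background, through its control arrays alone and so had to differ to be tested. With no such filter the adjusted p was 0.00189. With normexp background correction and quantile normalization the difference was smaller, at -1.84 (adjusted p = 0.0201). The measured means were -1.33 ± 0.38 (SD, n = 3) and -6.58 ± 0.27 (SD, n = 3), and within slide 1 alone the measured difference was -5.14.

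After 5-aza-dC, PMAIP1 read -1.76, -1.56 and -1.26 in control clones and -4.45, -5.25 and -5.12 in knockdown clones. The drug did not bring it well above background in any knockdown clone, and it was at least 7.93-fold lower there than in treated control clones. The measured difference of -3.41 was called (limma adjusted p = 0.0259). That call rested in part on treated knockdown clone 3, without which the difference was -3.32 with an adjusted p of 0.223. It was also lost with normexp (-1.37, adjusted p = 0.0501) and with the replicate block (adjusted p = 0.129). That block pairs control and knockdown clones of the same number, which are different clones. With no filter on dim probes, which the probe again passed through control arrays alone, the call stood at the threshold (adjusted p = 0.0482). In slide 2, which held 1 treated knockdown clone, the measured difference was -3.72. Between mock and treated control clones PMAIP1 differed by -0.19 (SE 0.25, adjusted p = 0.632). In knockdown clones the readings of all 3 clones were higher after treatment, by 2.02, 1.15 and 1.77, but with neither group well above background no fold can be given and no test was made. Its call as higher with 5-aza-dC over all clones (adjusted p = 0.0367) therefore came from readings that were not well above background, and it was lost with quantile normalization (adjusted p = 0.0802), normexp (0.08, adjusted p = 0.641), no filter on dim probes (adjusted p = 0.0721) and slide as a block (adjusted p = 0.0919) and on leaving out any array but mock control clone 3 and treated knockdown clone 2 (adjusted p 0.0502 to 0.0864). The interaction of clone type and drug was 1.84 (SE 0.39) with an adjusted p of 0.751.

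**Figure D1:**
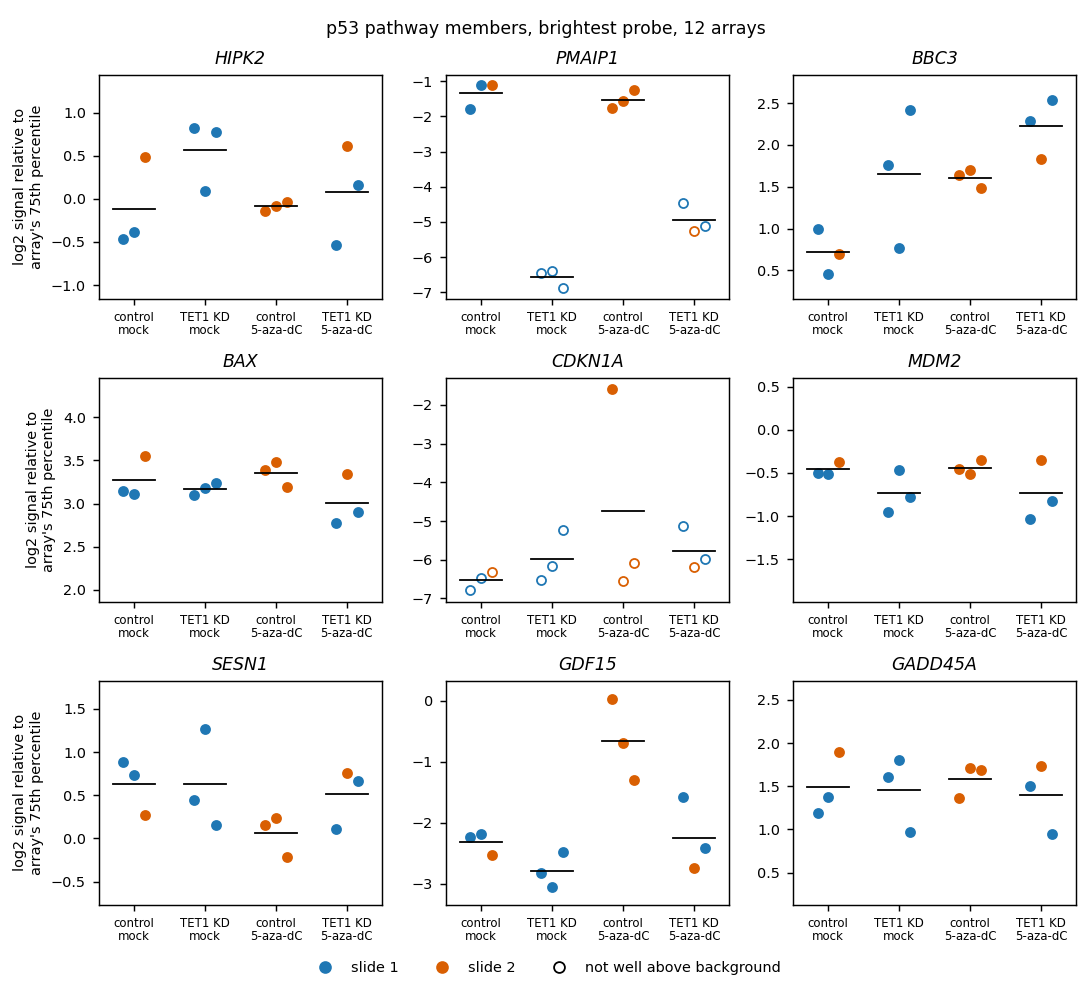
Log2 signal relative to the array's 75th percentile (vertical axes, each with its own range) of the 9 members at their brightest probe in the 4 groups (horizontal axes). Each point is an array, coloured by slide, open where the probe was not well above background, and bars are group means. PMAIP1 is split by clone type, GDF15 is highest in treated control clones, and CDKN1A is well above background on 1 array.

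Few members passed the test between clone types, and that was also so of the array as a whole. After mock treatment 1 of the 8 members tested was called, PMAIP1, against 0.137% of all probes tested. After 5-aza-dC 1 of 8 was called, again PMAIP1, against 0.068%. PMAIP1 had passed the filter through its control arrays alone in both, and CDKN1A did not pass it, so these counts are given as a description. Groups of the 2 clone types did not overlap for 1 of the 8 after mock treatment, while 21.1% of all probes did not overlap. After 5-aza-dC they did not overlap for 3 of the 8, PMAIP1, GDF15 and BBC3, beside 25% of all probes.

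HIPK2, a nuclear kinase that phosphorylates p53 and takes part in the choice between arrest and cell death, was measured by 5 probes on chromosome 7, all minus strand in hg19. The brightest, at 139246911-139246970, read -0.46, -0.38 and 0.48 in mock control clones and 0.82, 0.09 and 0.77 in mock knockdown clones. The groups overlapped, and the difference of 0.68 (SE 0.34) did not pass the test (adjusted p = 0.508). After 5-aza-dC it read -0.14, -0.08 and -0.04 in control clones and -0.54, 0.61 and 0.16 in knockdown clones, with a difference of 0.16 (SE 0.31, adjusted p = 0.78). Of the other probes after 5-aza-dC, A_33_P3223121 (1.28, adjusted p = 0.0952) and A_33_P3223116 (0.88, adjusted p = 0.209) were higher on every knockdown array than on every control array, A_19_P00315668 overlapped (0.62, adjusted p = 0.278), and A_19_P00321851 is described with the slides, none of them called. After mock treatment, at all 5 probes the mean of mock knockdown clones was above that of mock control clones, by 0.68 to 1.07, and none passed the test (adjusted p 0.279 to 0.508). At A_19_P00321851 this held with a spot marked as an outlier left out, and with that spot kept the difference was -1.08. The probes are not independent samples, since they were read on the same arrays. At the 2 dimmest the groups did not overlap. Over all probes tested, groups of the 2 clone types did not overlap at 21.1% after mock treatment and at 25% after 5-aza-dC.

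One HIPK2 probe differed with the drug. It lies at chr7:139416056-139416115, is open in one reading frame, and is shown because it is the HIPK2 sequence behind the only lower calls with 5-aza-dC among the members.
A_33_P3223121: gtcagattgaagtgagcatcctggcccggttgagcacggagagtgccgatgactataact
In control clones 1, 2 and 3 it read -1.77, -1.94 and -2.24 after mock treatment and -3.29, -3.29 and -3.12 after 5-aza-dC. In knockdown clones it read -1.06, -1.53 and -0.84 after mock treatment and -1.96, -2.14 and -1.75 after 5-aza-dC. It was lower after treatment in each of the 6 clones, by 0.61 to 1.52. The fall passed the test in control clones (-1.25, SE 0.18, adjusted p = 0.0164) and over all clones (-1.03, SE 0.15, adjusted p = 0.00168), and in knockdown clones it did not (-0.81, SE 0.25, adjusted p = 0.351). The interaction of 0.44 (SE 0.31) did not pass either (adjusted p = 1). The slides moved with this result, in that every slide 2 array, at -3.29 to -2.14, read below every slide 1 array, at -1.96 to -0.84. Within slide 2 treated control clones differed from the mock control clone by -1.0, and within slide 1 treated knockdown clones differed from mock knockdown clones by -0.72. With slide as a block the call in control clones was lost (adjusted p = 0.0715), as it was without mock control clone 1, mock control clone 2 or any one treated control clone (adjusted p 0.0557 to 0.137). The remaining 3 probes with values on every array gave no call for the drug.

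The fifth HIPK2 probe, A_19_P00321851 at chr7:139248348-139248407, followed the slide and not the groups. Treated control clones read 2.60, 1.48 and 2.43, mock control clones 1 and 2 read -2.40 and -2.85, and knockdown clones read -2.91 to -1.59. Its spots on mock control clone 3 and treated knockdown clone 2, the other slide 2 arrays, had been marked as outliers and were left out of the fit. Read all the same, they stood at 2.72 and 2.66. All 5 slide 2 arrays were thus at 1.48 to 2.72 and all 7 slide 1 arrays at -2.91 to -1.59. The test called the probe higher with 5-aza-dC in control clones (4.80, SE 0.40, adjusted p = 0.00469), higher over all clones (2.10, SE 0.30, adjusted p = 0.0028) and different between clone types in its response (-5.39, SE 0.59, adjusted p = 0.0398). With the marked spots kept, the differences were 3.02 in control clones (adjusted p = 0.234) and -1.89 for the interaction (adjusted p = 1). Over all clones the difference was then 2.07 (SE 1.12, adjusted p = 0.223). The interaction also lost its call without any 1 of 9 arrays (adjusted p 0.0885 to 0.291), and the call in control clones without treated control clone 1 or 3 (adjusted p 0.0593 and 0.0836). A slide block did not remove these calls, because without the marked spots slide 2 held treated control clones alone at this probe. At the brightest HIPK2 probe, the difference in control clones was 0.03 (SE 0.28, adjusted p = 0.949).

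**Figure D2:**
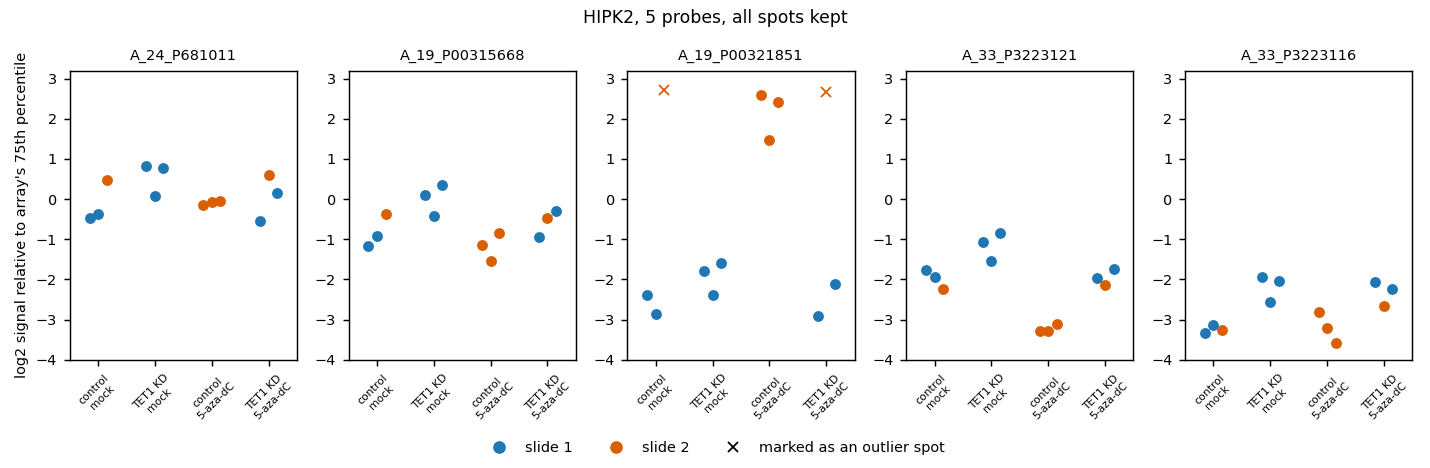
Log2 signal relative to the array's 75th percentile (shared vertical axis) of the 5 HIPK2 probes by group, coloured by slide, with spots marked as outliers by the scanner software shown as crosses. At A_19_P00321851 the 5 slide 2 arrays lie at 1.48 to 2.72 in every group they belong to, while at the other probes no group reaches that level.

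MDM2, which marks p53 for degradation and is itself a p53 target, was measured by 4 probes on chromosome 12. The brightest, at chr12:69238891-69238950, read -0.50, -0.51 and -0.37 in mock control clones, and -0.95, -0.47 and -0.78 in mock knockdown clones. After 5-aza-dC it read -0.46, -0.51 and -0.35 in control clones and -1.04, -0.35 and -0.82 in knockdown clones. The 2 knockdown clones with the lowest readings were the same before and after treatment, clones 1 and 3. At this probe the response of each of the 6 clones to the drug was within -0.09 to 0.12. No MDM2 probe was called in any comparison. At A_19_P00810040 all 6 clones read lower after treatment, with responses of -1.22 to -0.03. Treated and mock groups did not overlap there in control clones (-0.62, adjusted p = 0.165) or knockdown clones (-0.29, adjusted p = 0.715), beside 32.8% and 18.9% of all probes. At A_33_P3361707 mock knockdown clones lay below mock control clones (-0.36, adjusted p = 0.542), beside 21.1% of probes without overlap. The dimmest MDM2 probe, with 10 spots per array, followed the slide, at -3.55 to -3.24 on slide 1 and -1.79 to -1.32 on slide 2.

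BBC3, which encodes PUMA, another BH3-only protein, read higher in knockdown clones than in control clones, in the direction opposite to PMAIP1, without passing the test. It read 0.99, 0.46 and 0.70 in mock control clones and 1.76, 0.77 and 2.42 in mock knockdown clones, where clone 2 lay among the controls (0.93, SE 0.43, adjusted p = 0.48). After 5-aza-dC it read 1.64, 1.70 and 1.48 in control clones and 2.29, 1.83 and 2.54 in knockdown clones, with no overlap (0.61, SE 0.24, adjusted p = 0.248). Without treated knockdown clone 2 this difference was 0.80 with an adjusted p of 0.0206, and within slide 2 it was 0.22. Its readings were higher after treatment in all 6 clones, by 0.12 to 1.24. In control clones the difference of 0.89 (SE 0.19) stood just outside the threshold (adjusted p = 0.0543) and passed it with quantile normalization (adjusted p = 0.0418), with normexp (adjusted p = 0.0294) and without mock control clone 3 (adjusted p = 0.0258), the mock control clone on slide 2, so that drug and slide cannot then be told apart. It did not pass with slide as a block (0.91, adjusted p = 0.174) or with clone as a block (adjusted p = 0.0769). Over all clones it was 0.73 (SE 0.26, adjusted p = 0.0851) and passed when clone was a block in the fit (adjusted p = 0.0299), but not with slide as a block (adjusted p = 0.123).

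BAX, the pore-forming effector of the mitochondrial death pathway, was called at neither of its 2 probes in any comparison. Its brightest probe, at chr19:49464904-49464963, lay between 2.77 and 3.55 on all 12 arrays, and all groups overlapped there. At its dimmer probe, A_33_P3341144, treated control clones, at -3.33 to -2.51, lay below mock control clones, at -2.37 to -2.09, by 0.61 on average (SE 0.25, adjusted p = 0.178).

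**Figure D3:**
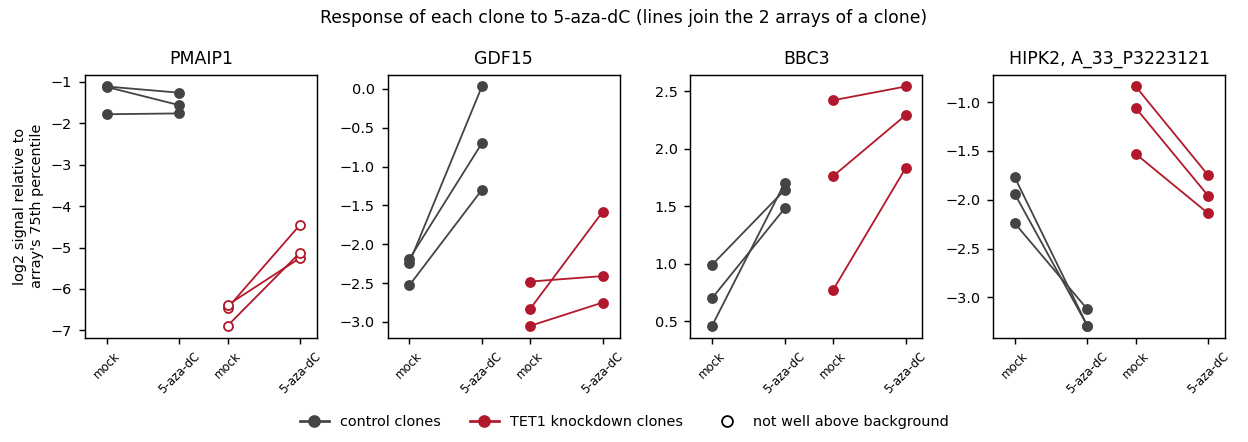
Log2 signal relative to the array's 75th percentile (vertical axes, each with its own range) before and after 5-aza-dC, with a line for each of the 3 control clones (grey) and 3 knockdown clones (red), and open points where the probe was not well above background. PMAIP1 is not well above background on any knockdown array, GDF15 climbs by 1.23 to 2.26 in control clones, and the HIPK2 probe falls in all 6 clones.

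GDF15 is a secreted cytokine of the TGF-β family that is induced by stress. It was the member called higher at its brightest probe with 5-aza-dC in control clones. BBC3 also rose in each control clone and stood just outside the threshold (0.89, adjusted p = 0.0543). GDF15 read -2.24, -2.19 and -2.53 in mock control clones and 0.03, -0.70 and -1.30 after treatment, so that every control clone went up, by 2.26, 1.49 and 1.23. The difference of 1.66 (SE 0.35), or 3.16-fold, passed the test narrowly (adjusted p = 0.0492). In knockdown clones it read -2.83, -3.05 and -2.48 after mock treatment and -1.58, -2.75 and -2.41 after 5-aza-dC. Clone 1 was 1.24 higher after treatment and the other two 0.29 and 0.07 higher, and the mean difference of 0.54 (SE 0.35) did not pass (adjusted p = 0.70). Treated knockdown clones all lay below treated control clones, by 1.59 on average (SE 0.44, adjusted p = 0.189). The difference between the 2 responses was -1.12 (SE 0.52, adjusted p = 1), so that a smaller response in knockdown clones was not established. Over all clones GDF15 rose by 1.10 (SE 0.26, adjusted p = 0.0217). The slides did not order its values in the same way, since mock control clone 3 and treated knockdown clone 2, both on slide 2, were at -2.53 and -2.75. Within slide 2 the control clones differed by 1.87. The call in control clones was nevertheless lost with slide as a block (adjusted p = 0.165) and without mock control clone 1, mock control clone 2 or any one treated control clone (adjusted p 0.0989 to 0.204), and the call over all clones was lost without mock knockdown clone 2 (adjusted p = 0.0532).

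CDKN1A, which encodes the cell cycle inhibitor p21 and is a classical p53 target, was well above background on 1 of the 12 arrays. That array was treated control clone 1, at -1.59, whereas treated control clones 2 and 3 read -6.55 and -6.09 and all other arrays lay between -6.79 and -5.14. The same clone had the highest GDF15 reading of all arrays. CDKN1A was not tested in any comparison, and with 1 probe and 1 array the reading has no replicate.

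SESN1, a stress-inducible sestrin, read 0.88, 0.74 and 0.27 in mock control clones and 0.15, 0.24 and -0.21 after 5-aza-dC, without overlap. The difference of -0.57 (SE 0.23) did not pass the test (adjusted p = 0.178), and with slide as a block, as within slide 2, it was -0.21 (adjusted p = 0.688 with the block). Without mock control clone 3 it passed (-0.75, adjusted p = 0.0299), but mock and treated control clones were then on different slides. In knockdown clones it read 0.45, 1.27 and 0.16 before and 0.11, 0.76 and 0.66 after treatment. GADD45A, which takes part in growth arrest and DNA repair, lay between 0.95 and 1.90 on all arrays, and all of its groups overlapped.

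**Figure D4:**
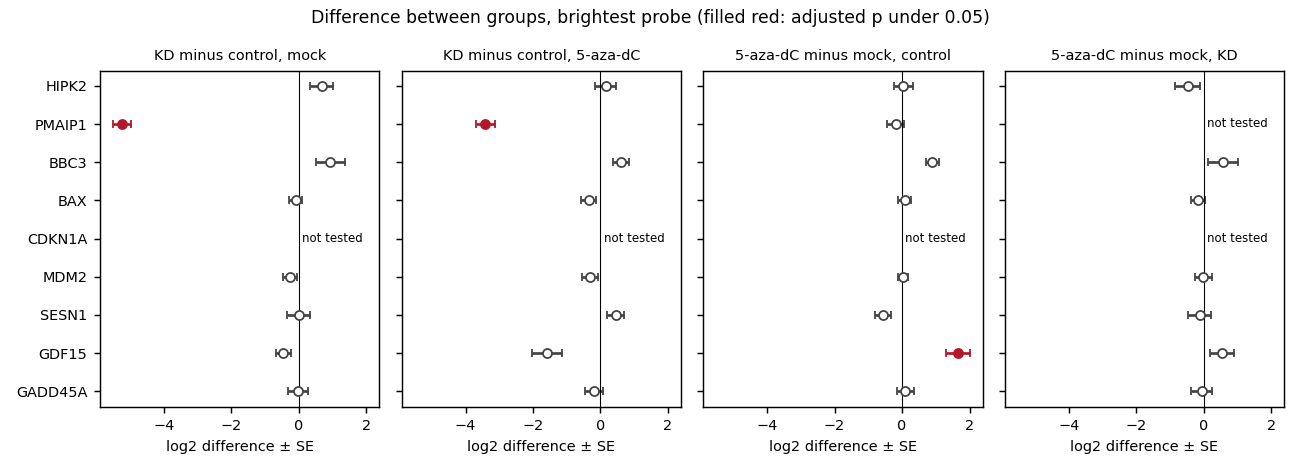
Log2 difference between groups with its standard error (horizontal axes, shared range) for the members at their brightest probe in 4 comparisons, filled red where the adjusted p was under 0.05. PMAIP1 is called between clone types in both treatments and GDF15 with 5-aza-dC in control clones, and genes marked as not tested were too dim.

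Calls for the drug among the members were also few. In control clones 1 of 8 tested was called, beside 5.32% of all probes, and the treated and mock groups did not overlap for 3 of 8, GDF15, BBC3 and SESN1, beside 32.8%. In knockdown clones limma called 0 of 7, beside 2.06%, and groups did not overlap for 0 of 7, beside 18.9%. At an unadjusted p under 0.05 the count in knockdown clones was also 0, beside 9.05% of all probes, as it was with the methods' t-test after adjustment. Over all clones 2 of 8 were called, PMAIP1 and GDF15, beside 13.2%. For the interaction of clone type and drug, at their brightest probes, 0 of 8 were called by limma, beside 0.033% of all probes, and 1, PMAIP1, was under an unadjusted p of 0.05, beside 2.54%. Centring arrays on the median in place of the 75th percentile lowered all differences between treated and mock arrays alike, by 0.26 in control clones and 0.30 in knockdown clones.

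Around the members, 4 lists of p53 pathway genes were counted at their brightest probes. None of the genes tested was called between clone types under either treatment, namely 29 regulators of p53, 13 and 15 targets in apoptosis, 24 targets in arrest, repair and metabolism, and 13 and 14 BCL2 family genes after mock treatment and 5-aza-dC. At an unadjusted p under 0.05 after mock treatment there was 1 regulator, 1 target in apoptosis, 2 targets in arrest that were higher and 5 that were lower, and 1 BCL2 family gene, while 11% of all probes were under it. After 5-aza-dC there were 2 regulators that were higher and 1 lower, 3 targets in apoptosis that were higher, 1 target in arrest that was higher and 3 lower, and 1 BCL2 family gene that was higher and 3 lower, while 19.3% of all probes were under it. Nothing particular to the lists is read from these counts. List medians between clone types lay between -0.02 and 0.25, beside 0.04 and 0.02 for all probes.

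With 5-aza-dC in control clones, 1 of 14 targets in apoptosis (TP53INP1) and 2 of 13 BCL2 family genes (BIK and HRK) were called, with none of 29 regulators and 23 targets in arrest, beside 5.32% of all probes. In knockdown clones 1 of 13 BCL2 family genes (BIK) was called, with none of 29 regulators, 15 targets in apoptosis and 25 in arrest, beside 2.06%. TP53INP1, a p53-induced regulator of autophagy and cell death, read -3.83 to -2.67 in treated control clones. It was not well above background in their mock arrays, which gives an increase of at least 2.55-fold. Its measured difference was 3.19 (SE 0.35, limma adjusted p = 0.00612), and 0.78 with normexp (limma adjusted p = 0.0465). It passed the filter on dim probes through treated arrays alone and so had to differ to be tested, and with no such filter the adjusted p was 0.0124. Its other probe was at background level on all 12 arrays. In knockdown clones it was well above background on 1 of 3 treated arrays. BIK, a BH3-only protein of the endoplasmic reticulum, rose in control clones from a mean of -4.72 to -2.36 (2.36, SE 0.44, adjusted p = 0.0368) and in knockdown clones from -4.28 to -1.12 (3.15, SE 0.24, adjusted p = 0.00122). It was well above background on 2 of 3 mock arrays of either clone type. HRK, a further BH3-only gene, rose in control clones from -2.55 to -0.90 (1.64, SE 0.27, adjusted p = 0.0246), while in knockdown clones it stood at -2.38 and -2.29. The interaction for HRK was -1.55 (SE 0.62, adjusted p = 1), and its call in control clones was lost when clone was a block in the fit (adjusted p = 0.0526). BIK in control clones lost its call with slide as a block (3.12, adjusted p = 0.0561), as did HRK (1.42, adjusted p = 0.155) and TP53INP1 (2.82, adjusted p = 0.0664). In knockdown clones BIK kept it (3.28, adjusted p = 0.00345). Without mock control clone 1, mock control clone 2 or any one treated control clone, BIK (adjusted p 0.0709 to 0.164) and HRK (adjusted p 0.0786 to 0.154) were no longer called in control clones, nor was BIK in knockdown clones without treated clone 3 (adjusted p = 0.0635).

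Over all clones 3 of 16 targets in apoptosis were higher and 2 lower, 3 of 25 targets in arrest, repair and metabolism were higher, 2 of 14 BCL2 family genes were higher, and 3 of 29 regulators of p53 were lower, beside the same 13.2% of all probes. SFN, the 14-3-3 sigma gene that acts in the G2 checkpoint, had the highest difference of these (3.73, SE 0.87, adjusted p = 0.0204). It spread widely over mock arrays, from -4.35 to 0.19, and was at 0.38 to 2.17 on treated arrays. TP53I3, an oxidoreductase gene, rose by 1.61 (adjusted p = 0.00849), and both of its probes were called. FAS, a death receptor, was not well above background on any mock control array and had means of -3.74 and -2.68 in mock and treated knockdown clones, with its call at the edge (adjusted p = 0.0449) and none at the other of its probes that was tested (0.33, adjusted p = 0.665). BCL2L10, an anti-apoptotic family member, was called higher (adjusted p = 0.00132) although it was not well above background on any mock array and on 3 of 6 treated ones, through which alone it passed the filter (adjusted p = 0.00201 with no filter). DRAM1 (0.79) and SERTAD1 (0.67) were higher. TNFRSF10A (-0.52), another death receptor, and PIDD1 (-0.54) were lower, as were the regulators PRKDC (-0.90), a DNA damage kinase, USP7 (-0.84), a deubiquitinase of MDM2 and p53, and DAXX (-0.50). TP53INP1 (2.68, adjusted p = 0.000101), like BCL2L10 (2.00), passed the filter through treated arrays alone and so had to differ to be tested. With no filter its adjusted p was 0.000144. With normexp the differences were 0.65 for TP53INP1 and 0.35 for BCL2L10. The counts that hold these genes are given as a description. With slide as a block the calls of TP53INP1, BIK, SFN and BCL2L10 were kept (adjusted p 0.000188 to 0.0282), that of PIDD1 was kept at the threshold, and those of the other genes named here were lost (adjusted p 0.0544 to 0.214). PRKDC and USP7 also lost theirs when clone was a block in the fit (adjusted p = 0.0548 and 0.0605). Leaving out single arrays ended the calls of DAXX and FAS for 10 of the 12 arrays, of PRKDC and USP7 for 9 and of DRAM1 for 7 (adjusted p 0.0521 to 0.111). SFN and TNFRSF10A were not called without mock control clone 1 (adjusted p = 0.0536 and 0.0509), nor SERTAD1 without mock or treated control clone 1 (adjusted p 0.0523 to 0.0546).

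**Figure D5:**
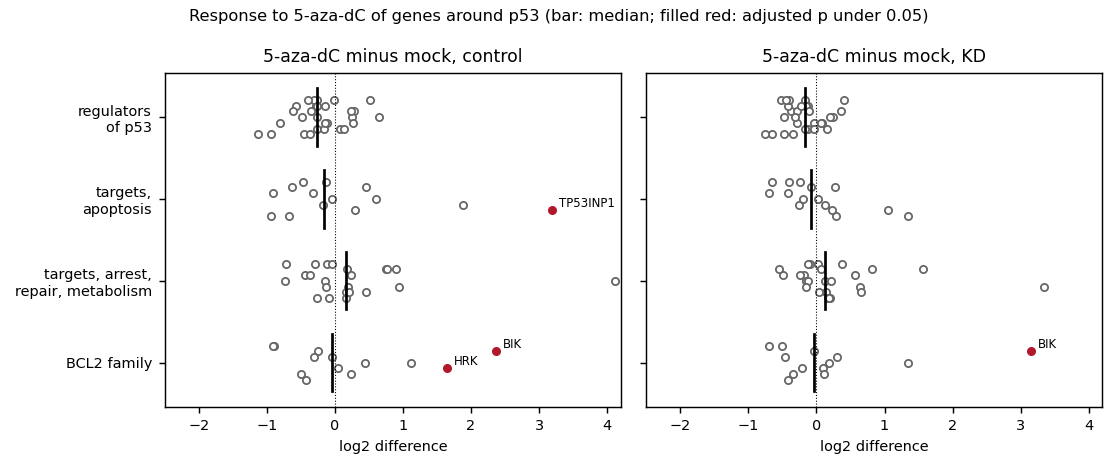
Log2 difference between treated and mock arrays (horizontal axes) of the tested genes of 4 p53 pathway lists in control clones (left) and knockdown clones (right), with the list median as a bar and called genes filled red and named. TP53INP1, BIK and HRK are called in control clones and BIK in knockdown clones, while list medians lie between -0.26 and 0.16.

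Summed levels of 6 neuroendocrine markers also moved with the drug, from -1.75 to -1.17 in mock control clones to 1.62 to 2.61 in treated ones, and from -3.20 to -0.60 in mock knockdown clones to 0.86 to 1.25 in treated ones, which lay below treated control clones. CHGA, CHGB, SYP and ENO2 were well above background on 4, 6, 3 and 11 of the 12 arrays, and NCAM1 and INSM1 on none. Summed levels of 4 leukocyte markers were also higher after treatment, at 0.78 to 1.89 and then 2.04 to 2.81 in control clones and at -0.11 to 0.58 and then 0.82 to 2.83 in knockdown clones. Those of 4 endothelial markers were lower after treatment in control clones, from -3.13 to -2.48 before to -4.06 to -3.39 after, and overlapped in knockdown clones (-2.44 to -2.12 and -3.21 to -2.42). Those of 6 fibroblast markers overlapped in control clones (-1.85 to 0.84 and 0.10 to 1.46) and not in knockdown clones (-1.73 to -0.34 and -0.10 to 0.46). The part of these markers in the changes with 5-aza-dC was not tested. Among other cell types, 3 to 4 of 4 leukocyte markers, 2 to 4 of 6 fibroblast markers and 0 to 2 of 4 endothelial markers were well above background on an array.

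The genes whose pattern over the 12 arrays was most like that of PMAIP1, among 14900 genes, were MSRA (Pearson's r = 0.969), PARP14 (0.968) and ALS2CR11 (0.967). For HIPK2 at its brightest probe they were RAD9A (0.877), NOLC1 (0.865) and ATM (0.851). The arrays share clones and slides, and no test was made of these likenesses.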

How the data were processed

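RNA labelled with Cy3 had been hybridised to Agilent 60K expression arrays. The authors deposited scanner output of Agilent Feature Extraction (10.7.3.1 per the file headers), from which the processed signal intensity was used, and a table of the same signals. Intensity was divided by each array's 75th percentile over non-control spots, and log2 values of the deposited intensity were analysed. Control and outlier spots were left out and spots of a probe were averaged. Probes well above background (at least 50% of spots) on 3 or more arrays of a comparison were tested with limma (3.58.1, R 4.3.3, checked on simulated data), with Benjamini-Hochberg adjustment over all probes tested and a threshold of 0.05. Called means an adjusted p under 0.05. A fit of 2 groups used 6 arrays, and fits over all clones and for the interaction used 12, none with a block. Since the labels name the clone, mock and treated arrays of one number are the same clone, and their deviations from the group means correlated at 0.217 to 0.616 (-0.0584 to 0.0941 between control and knockdown clones of the same number, which are different clones). All values were read from single clones with 1 array per treatment. The number of arrays limits the precision.

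Of the 2 vectors against TET1, the study's text gives the first to knockdown clones 1 and 2 and the second to clone 3, which the labels do not state. All members were named at every probe, with TET1. Of the gene lists, 1 regulator and 1 marker are not reported here and were left out of the counts. From the lists, genes called at their brightest probe were named, at most 6 per list and comparison, and for HIPK2 and PMAIP1 the 3 most similar genes. Members and lists were chosen with earlier results of these data known. Alternatives covered normalization, background, filters, outlier spots, slide and clone blocks, all 12 arrays in a fit, the methods' t-test and leaving out each array. Probe coordinates are hg19 from the files, and exon positions were not analysed here.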

Additional observations from a re-analysis of the deposited data

Results flagged for a closer look

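At the HIPK2 probe A_19_P00321851, which followed the slide, the term for a difference in response to 5-aza-dC between clone types passed the test when 2 marked slide 2 spots were left out (interaction -5.39 on the log2 scale, SE 0.59, limma adjusted p = 0.0398). Treated control clones read 1.48 to 2.60 and treated knockdown clones 1 and 3 read -2.91 and -2.12. The spots of mock control clone 3 and treated knockdown clone 2 were left out as outliers but read 2.72 and 2.66, as the other slide 2 arrays did, and with them all slide 2 arrays lay above all slide 1 arrays and the interaction was -1.89 (adjusted p = 1), so that no difference between clone types is read from this probe. When clone was a block in the fit it was -5.50 (adjusted p = 0.209). Groups of 3 were too small for a search for single arrays that stand apart.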

How the results depend on the processing

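Counts of called members changed as follows. Between clone types after mock treatment the count of 1 fell to 0 with probes well above background on every array, with clone number and slide as blocks and with the methods' t-test, and was 0 to 1 without single arrays. After 5-aza-dC it fell from 1 to 0 with normexp, with probes well above background on every array, with the replicate block, with that block and slide and with the t-test, and was 0 to 2 without single arrays. Leaving out a control array takes PMAIP1 below the 3 bright arrays that the filter asks for, so it is then not tested. With 5-aza-dC in control clones the count of 1 fell to 0 with no filter on dim probes, with all arrays bright, with outlier spots kept (adjusted p of GDF15 0.0503), with slide, with clone and slide and with the t-test, and was 0 to 3 without single arrays. Quantile normalization and normexp called BBC3 in place of GDF15 (adjusted p of GDF15 0.0516 and 0.0593). In knockdown clones the count of 0 became 1, PMAIP1, with all 12 arrays in a fit, with or without slide, and stayed 0 without single arrays. Over all clones the count of 2 became 1 with quantile normalization, normexp, no filter, all arrays bright, slide, and clone and slide, became 3 with the clone as replicate block, with BBC3 added, and was 0 to 2 without single arrays. For the interaction it was 0 throughout. PMAIP1 stayed lower in knockdown clones in every alternative that gave a value (-5.35 to -1.84 after mock treatment, -3.72 to -1.37 after 5-aza-dC).

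Differences that changed sign were all without a call. With outlier spots kept, HIPK2 A_19_P00321851 gave -1.08 between mock clone types and 1.13 with 5-aza-dC in knockdown clones. With slide as a block, differences between clone types were BAX 0.04 and GADD45A 0.18 after mock treatment and MDM2 0.08 and GADD45A 0.15 after 5-aza-dC, those in control clones were HIPK2 -0.57, BAX -0.20, MDM2 -0.06 and GADD45A -0.31, and HIPK2 A_33_P3223116 was 0.02 in knockdown clones. With all 12 arrays and slide they were BAX 0.06, GADD45A 0.16 and, after 5-aza-dC, GADD45A 0.18, and in control clones HIPK2 -0.53, BAX -0.23, MDM2 -0.21 and GADD45A -0.27. With the replicate block and slide they were BAX 0.01, SESN1 0.05 and GADD45A 0.42 after mock treatment, MDM2 0.15 and GADD45A 0.03 after 5-aza-dC, HIPK2 -0.53, BAX -0.37, GADD45A -0.21 and HIPK2 A_33_P3223116 -0.31 in control clones, and SESN1 0.08 in knockdown clones. Centring on the median gave SESN1 0.04 and GADD45A 0.01 between mock clone types and HIPK2 -0.22, BAX -0.18, MDM2 -0.23, GADD45A -0.15 and HIPK2 A_33_P3223116 -0.21 in control clones. Quantile normalization gave -0.10 and normexp -0.02 for the last of these, and 0.00 and 0.03 for GADD45A in knockdown clones. The mean of all tested probes gave HIPK2 -0.36 between treated clone types, BAX -0.27 in control clones and MDM2 0.10 in knockdown clones. Without single arrays the ranges that crossed 0 were, between mock clone types, SESN1 -0.32 to 0.23, BAX -0.18 to 0.04 and GADD45A -0.20 to 0.22, between treated clone types HIPK2 -0.11 to 0.47 and GADD45A -0.36 to 0.03, in control clones HIPK2 -0.14 to 0.33, GADD45A -0.05 to 0.31, MDM2 -0.02 to 0.06 and HIPK2 A_33_P3223116 -0.15 to 0.23, and in knockdown clones GADD45A -0.31 to 0.16, MDM2 -0.20 to 0.14, SESN1 -0.36 to 0.20 and HIPK2 A_33_P3223116 -0.34 to 0.02. The cause was not tested for the other changes. Signals near background limit what can be said of PMAIP1 in knockdown clones and of CDKN1A.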

Other observations

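Probes at which the 2 slides stood apart were not confined to HIPK2 and MDM2. With outlier spots kept, all 5 slide 2 arrays read above all 7 slide 1 arrays at 2905 of 27294 probes, or 10.6%, and at 108 of them the gap was over 2 log2 units. Slide 2 held mostly treated arrays and slide 1 mostly mock arrays, so slide and drug cannot be told apart in these counts. Probes at which slide 2 read below slide 1, as at HIPK2 A_33_P3223121, were not counted.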
